A study of Mus musculus with 31 samples.

Results

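Meg3, Rian and Mirg are 3 long noncoding RNAs of mouse chromosome 12, and they are described here in every library of an RNA-seq table of 15034 genes. They were taken by name, and earlier results of these data were known when they were chosen. The cells were ES-E14TG2a mouse embryonic stem cells (mESCs), all of which carried a FLAG tag on both copies of the endogenous Trim71 gene, which encodes an RNA-binding protein. The tagged cells were the WT mESCs. CLIPΔ mESCs lacked the Trim71-binding stretch of the Ago2 3′UTR on both alleles, Ago2 KO mESCs lacked Ago2, and Ago2 KO/CLIPΔ mESCs carried both changes. RNA-seq covered 12 libraries, with 2 from each genotype that has Ago2 (WT and CLIPΔ) and 4 from each that lacks it, and small RNA-seq covered 16 libraries, with 4 of every genotype. The profiled cells were grown without feeder cells, on gelatin in medium with Lif and the inhibitors known as 2i. The mutant lines were made with CRISPR/Cas9 and expanded from sorted single cells. The study describes 2 CLIPΔ clones and RNA-seq of both, but the labels name no clone for any library. How many clones stand behind the other genotypes is not given in the sources used here, so differences between genotypes and between clones cannot be separated. The deposited tables name the CLIPΔ columns d3, a name that the 4-genotype layout leaves only for CLIPΔ. The labels call the libraries biological replicates without saying what was repeated, so the p-values measure only the spread between these libraries.

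The Dlk1-Dio3 domain is an imprinted region, in which protein-coding genes such as Dlk1, Rtl1 and Dio3 are normally expressed from the paternal chromosome and noncoding RNAs such as Meg3, Rian and Mirg from the maternal chromosome. A germline-methylated region between Dlk1 and Meg3 sets which copy is used. Meg3 is a nuclear long noncoding RNA, Rian contains box C/D small nucleolar RNAs, and Mirg contains a cluster of microRNAs (miRNAs). In cultured pluripotent cells the noncoding RNAs of this domain are known to differ widely between lines and clones. Ago2 is an Argonaute protein that holds mature miRNAs and carries out their silencing.

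The 3 genes lie in the same orientation on the plus strand of chromosome 12 in GRCm38 (mm10), as annotated by RefSeq. Meg3 is at chr12:109540996-109571729, Rian at chr12:109603945-109661716 and Mirg at chr12:109734981-109749458. Meg3 and Rian are 32.2 kb apart, Rian and Mirg are 73.3 kb apart, and the stretch from the start of Meg3 to the end of Mirg is 208 kb long. RefSeq places 2 miRNA genes inside Meg3, 3 miRNA genes and 11 small nucleolar RNA genes inside Rian, and 10 miRNA genes inside Mirg. On the opposite strand, the widest RefSeq span of Rtl1 overlaps 6.83 kb at the 3′ end of Meg3 and 0.474 kb at the start of Rian.

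**Figure D1:**
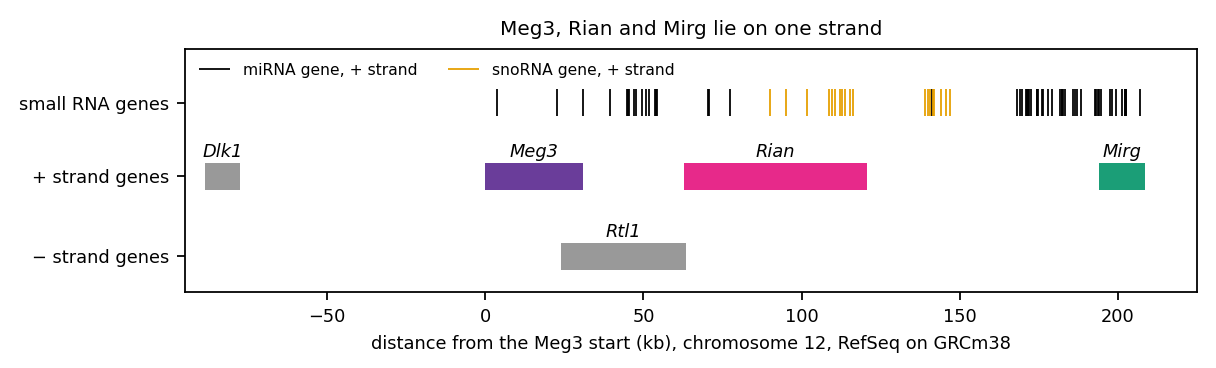
Map of the Meg3, Rian and Mirg part of chromosome 12, with distance from the Meg3 start in kb on the x axis and strands on the y axis. Coloured bars are the 3 noncoding RNA genes and grey bars Dlk1 and Rtl1, and the ticks are the RefSeq miRNA (black) and small nucleolar RNA (orange) genes of the plus strand, 10 of which lie inside Mirg.

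Because the 3 RNAs are described together, their RefSeq promoter windows (GRCm38.p6, 250 bases before to 50 after the gene start) were searched on both strands for TGACGTCA, the palindromic cAMP response element. It occurred in 588 of 32851 mouse promoter windows of the same length (1.79%). The Meg3 window held 1 match, from 57 to 50 bases before the start, and the windows of Rian and Mirg held 0. The Meg3 match is printed in capitals within chr12:109540928-109540957 on the plus strand, because among the 3 windows only that of Meg3 held a match.
Meg3 promoter: gcagaatgcgcTGACGTCAaagaccacccc

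RNA-seq levels were in TPM (transcript abundance scaled to a common library total), as deposited. For all 15034 genes (100%) the values were whole multiples of 1 read to within 0.02, and the reads so recovered came to between 19.3 and 54.6 M reads (M, mega) per library. Meg3 rested on 1601 to 14481 reads per library, Rian on 1189 to 8962 and Mirg on 183 to 1266, so that counting error was at most 2.4992%, 2.90% and 7.39% of the value. The length behind each deposited value was the genomic span of the gene with introns included: 30733 bases for Meg3, 57771 for Rian and 14477 for Mirg. Levels are therefore compared between libraries for each RNA. Between the 3 RNAs, the order depends on the length used. Per kb of span, the WT means were 13.4 RPM (recovered reads scaled to the library total) for Meg3, 3.39 for Rian and 2.48 for Mirg, and per kb of the longest spliced RefSeq transcript they were 35.8, 54.6 and 27.6.

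The targeted gene was low in the libraries labelled as knockouts. Ago2 was at 21.6 and 28.2 TPM in WT mESCs and at 20.3 and 27.3 TPM in CLIPΔ mESCs, against 1.67 to 2.29 TPM in Ago2 KO and 1.51 to 2.87 TPM in Ago2 KO/CLIPΔ mESCs. The 11 pluripotency markers in the table, Pou5f1 and Nanog among them, summed to between 7808 and 11864 TPM in every library (Sox2 was not analysed here). The 4 fibroblast markers in the table, of 8 listed, summed to between 1.59 and 3.94 TPM, and the 7 primitive endoderm markers to between 3.40 and 8.33 TPM. Sums of several lists moved with genotype. The pluripotency sum was 8419.5 and 9411 TPM in WT, 7808 and 8248 in CLIPΔ, 10206 to 11864 in Ago2 KO and 8968 to 10716 in Ago2 KO/CLIPΔ mESCs. The primitive endoderm sum was 4.19 and 8.33 TPM in WT, 3.89 and 6.03 in CLIPΔ, 4.65 to 5.54 in Ago2 KO and 3.40 to 3.70 in Ago2 KO/CLIPΔ mESCs. The 5 primed epiblast markers summed to 158 and 254 TPM in WT, 127 and 179 in CLIPΔ, 91.7 to 117 in Ago2 KO and 101 to 109 in Ago2 KO/CLIPΔ mESCs. The trophoblast sum was 84.3 and 96.1 TPM in WT, 96.1 and 97.8 in CLIPΔ, 54.3 to 85.3 in Ago2 KO and 50.7 to 71.8 in Ago2 KO/CLIPΔ mESCs. The mesoderm sum was 18.99 and 28.2 TPM in WT, 16.1 and 20.7 in CLIPΔ, 10.6 to 16.4 in Ago2 KO and 15.4 to 16.4 in Ago2 KO/CLIPΔ mESCs. The sum of 4 neural progenitor markers, like the pluripotency sum, was higher without Ago2 than in the matching genotype with it. The neural progenitor sum was at 42.4 and 53.0 TPM in WT, 51.6 and 70.3 in CLIPΔ, 137 to 148 in Ago2 KO and 97.2 to 133 in Ago2 KO/CLIPΔ mESCs. Genes within a list differed. In Ago2 KO against WT, limma called 3 of 11 pluripotency markers higher and 3 lower (adjusted p under 0.05). Of 2 neural progenitor markers tested, 1 was called higher and 0 lower. Of all genes, 14.1% were called higher and 43.5% lower. The part of these markers in the results below was not tested. In bulk cultures, fewer cells with an RNA and less RNA per cell cannot be told apart.

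All 3 noncoding RNAs were highest in WT mESCs and lowest in Ago2 KO mESCs. Meg3 was at 147 and 132 TPM in the 2 WT libraries, at 82.3 and 68.7 TPM in the 2 CLIPΔ libraries, at 29.1, 27.9, 23.3 and 27.3 TPM in the 4 Ago2 KO libraries, and at 39.3, 49.99, 73.1 and 66.7 TPM in the 4 Ago2 KO/CLIPΔ libraries. The Ago2 KO libraries lay below every other library. The Ago2 KO/CLIPΔ libraries ran from 39.3 TPM, above the Ago2 KO maximum of 29.1 TPM, into the range of CLIPΔ. The share of all genes with such an order was not counted. WT Meg3 ranked 1187 of 15034 genes by mean TPM.

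Rian was at 36.7 and 33.8 TPM in WT mESCs, at 20.3 and 21.4 TPM in CLIPΔ mESCs, at 9.51, 11.4, 9.19 and 9.97 TPM in Ago2 KO mESCs, and at 16.1, 18.2, 24.96 and 26.3 TPM in Ago2 KO/CLIPΔ mESCs. Ago2 KO/CLIPΔ and CLIPΔ libraries overlapped, and the other neighbours in the order did not. Mirg was at 26.4 and 25.1 TPM in WT mESCs, at 13.3 and 14.7 TPM in CLIPΔ mESCs, at 7.72, 7.41, 5.64 and 6.93 TPM in Ago2 KO mESCs, and at 12.2, 13.7, 14.2 and 13.5 TPM in Ago2 KO/CLIPΔ mESCs. Its Ago2 KO/CLIPΔ and CLIPΔ libraries overlapped, and those 2 genotypes lay between WT and Ago2 KO without touching either. For Rian and Mirg too, the share of all genes with such an order was not counted.

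**Figure D2:**
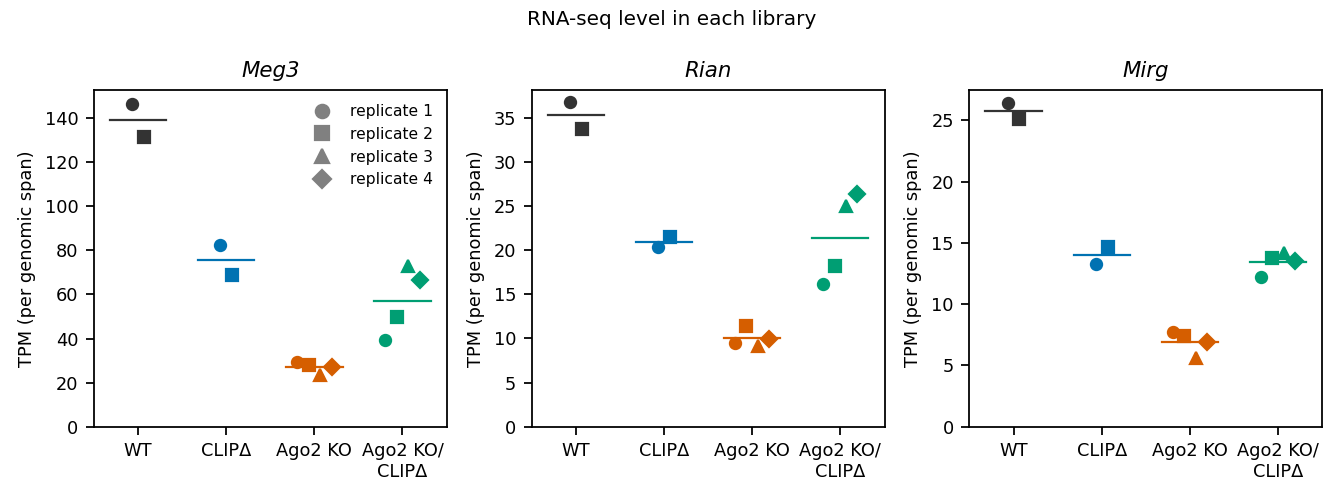
Level of Meg3, Rian and Mirg in each of the 12 RNA-seq libraries, in TPM per genomic span on the y axis (from 0), by genotype on the x axis. Symbols mark the replicate number and lines the mean of a genotype, and the 4 Ago2 KO libraries lie below all other libraries in each panel. The share of all genes with this arrangement was not counted.

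As shares of the WT mean, CLIPΔ mESCs held 54.3% for Meg3, 59.3% for Rian and 54.2% for Mirg. Ago2 KO mESCs held 19.3%, 28.4% and 26.9%, and Ago2 KO/CLIPΔ mESCs 41.2%, 60.7% and 52.0%. The mean ± SD of Meg3 was 139 ± 10.5 TPM in WT (n = 2), 75.5 ± 9.64 in CLIPΔ (n = 2), 26.9 ± 2.55 in Ago2 KO (n = 4) and 57.3 ± 15.4 in Ago2 KO/CLIPΔ mESCs (n = 4). That last SD was the widest of the 4 genotypes for Meg3.

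The first comparison asked whether the loss of the Trim71-binding stretch, in cells that have Ago2, goes with a different level of the 3 RNAs. Every CLIPΔ library was below every WT library for each of them, by 0.88 ± 0.18 (SE) on the log2(TPM + 1) scale for Meg3 (95% interval -1.33 to -0.43), by 0.73 ± 0.17 for Rian (-1.15 to -0.30) and by 0.84 ± 0.17 for Mirg (-1.28 to -0.40). These are 1.84-, 1.66- and 1.79-fold lower levels. The share of all genes with such an arrangement of 2 libraries against 2 was not counted. Of all genes tested, 59.9% had a difference below 0. With limma over 11642 genes, no member passed the adjusted threshold of 0.05, with adjusted p-values of 0.57, 0.64 and 0.57. Over all genes limma called 0 (0%) and edgeR on the recovered reads called 0, while 604 genes had an unadjusted p under 0.05 in limma, 289 of them lower in CLIPΔ mESCs (2.48%). All 3 members were among those 289, at unadjusted values of 0.0037, 0.0066 and 0.0040. With the spread estimated from all 12 libraries, Mirg passed the threshold (limma adjusted p = 0.0085), and Meg3 (0.092) and Rian (0.10) did not.

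Loss of Ago2 in cells with an intact Ago2 3′UTR went with a larger difference, and it passed the test for all 3 RNAs. Against WT mESCs, Meg3 fell by 2.33 ± 0.11 (SE) on the log2 scale in Ago2 KO mESCs, Rian fell by 1.72 ± 0.11 and Mirg fell by 1.76 ± 0.13, which are 5.03-, 3.30- and 3.39-fold lower levels. The limma adjusted p-values were 0.00013, 0.00017 and 0.00020 over 11297 genes. No Ago2 KO library overlapped a WT library for any of the 3, and the share of all genes with this arrangement was not counted. Lower calls were common in this comparison, at 4910 genes (43.5%) against 1589 higher calls (14.1%), so that a lower call alone sets the 3 RNAs little apart. Their size was less common, since 20 genes had a more negative difference than Meg3, 104 than Rian and 92 than Mirg.

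The median of all genes was itself at -0.26 in this comparison, a shift that rescaling by median-of-ratios size factors removed and that moved the split of calls to 3086 higher of 6113. Relative to that median, the differences of Meg3, Rian and Mirg were -2.07, -1.47 and -1.51. After the rescaling they were -2.04, -1.44 and -1.49, and all 3 still passed.

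The pattern turned in cells that lack Ago2. Compared with Ago2 KO mESCs, Ago2 KO/CLIPΔ mESCs held higher Meg3 by 1.03 ± 0.17 (SE) on the log2 scale (95% interval 0.63 to 1.42), higher Rian by 1.00 ± 0.15 (0.66 to 1.34) and higher Mirg by 0.87 ± 0.10 (0.65 to 1.09). These are 2.04-, 2.00- and 1.83-fold higher levels, with limma adjusted p-values of 0.016, 0.0097 and 0.0031 over 10956 genes. In this comparison 108 genes rose (0.986%) and 245 fell (2.24%), and 3, 5 and 10 genes had a more positive difference than Meg3, Rian and Mirg. With the replicate number as a block, 804 genes were called in place of 353, with all 3 members still among them. All 4 Ago2 KO/CLIPΔ libraries lay above all 4 Ago2 KO libraries for each RNA, an arrangement found in 3.71% of the genes tested in this direction. An exact two-sided permutation test of the TPM values gave p = 0.029 for each of the 3 RNAs, the smallest that 4 libraries against 4 allow. That test takes the 8 libraries as exchangeable. With same-numbered libraries as pairs, an exact sign-flip permutation test gave p = 0.125 for each, the smallest that 4 pairs allow. The sign-flip test takes the pairs as independent, although libraries also deviated together within replicates 1 and 2 and within replicates 3 and 4.

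The size of this rise was not the same in all replicate numbers, a difference that was not itself tested. Over replicates 1 and 2, the Ago2 KO/CLIPΔ mean was 1.56 times the Ago2 KO mean for Meg3, 1.64 times for Rian and 1.71 times for Mirg. Over replicates 3 and 4, these ratios were 2.77, 2.68 and 2.20. Ago2 KO/CLIPΔ replicates 3 and 4 were also the deepest libraries, with 52.2 and 54.6 M recovered reads against 34.8 and 35.3 M reads in replicates 1 and 2, and whether depth plays a part was not tested. Without those 2 libraries the differences were 0.70, 0.72 and 0.82 on the log2 scale, with limma adjusted p-values of 0.018, 0.011 and 0.013. Without Ago2 KO replicate 2, Meg3 was at 1.05 with an limma adjusted p of 0.053.

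**Figure D3:**
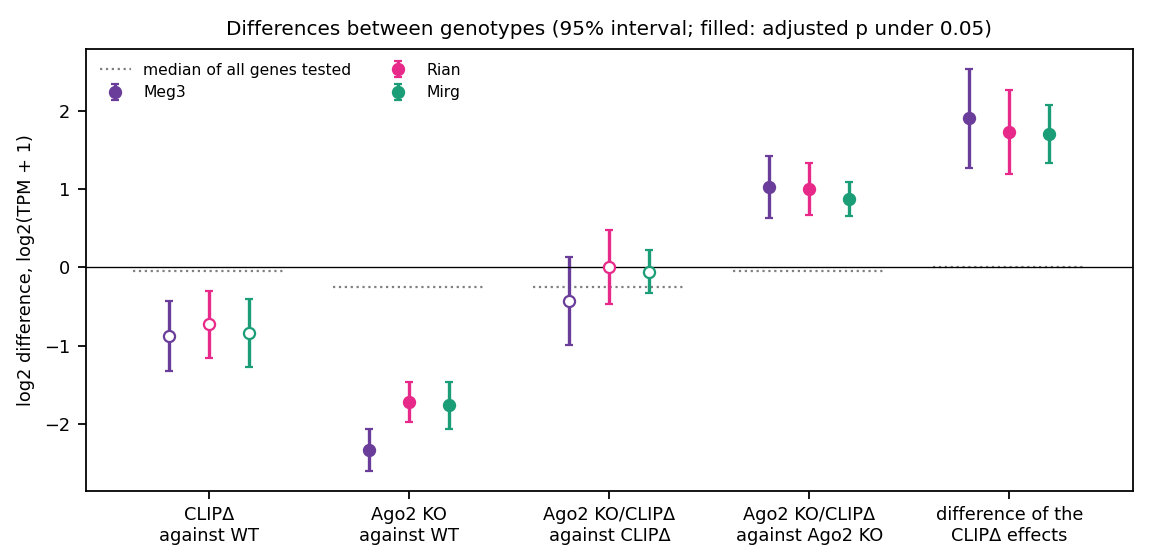
Differences between genotypes for Meg3, Rian and Mirg on the log2(TPM + 1) scale (y axis), for 4 comparisons and the difference between the CLIPΔ effects without and with Ago2 (x axis). Points are limma estimates with 95% intervals, filled where the adjusted p is under 0.05, and the dotted lines are the medians of all genes tested. The 3 RNAs lie below 0 for CLIPΔ against WT and above 0 for Ago2 KO/CLIPΔ against Ago2 KO.

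When the Trim71-binding stretch was already absent, loss of Ago2 went with no difference in the 3 RNAs that passed the test. Ago2 KO/CLIPΔ against CLIPΔ mESCs gave -0.43 ± 0.24 (SE) for Meg3 (95% interval -0.99 to 0.13), 0.01 ± 0.20 for Rian (-0.47 to 0.48) and -0.06 ± 0.12 for Mirg (-0.33 to 0.22) on the log2 scale. None passed the limma test over 11256 genes, with adjusted p-values of 0.17, 0.98 and 0.72, while 1205 genes were called higher (10.7%) and 4189 lower (37.2%). The intervals leave room for Meg3 to be lower by nearly as much as 1 log2 unit. With only replicates 1 and 2 of each genotype Meg3 was at -0.75 and passed (limma adjusted p = 0.024). The median of all genes was at -0.25, and after median-of-ratios rescaling, which moved the split of calls to 2469 higher of 4871, the 3 values were -0.14, 0.29 and 0.22.

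The 2-by-2 design allows a test of whether the CLIPΔ effect depends on Ago2. The difference between the CLIPΔ effect in Ago2 KO cells and that in cells with Ago2 was 1.90 ± 0.29 (SE) log2 units for Meg3, 1.73 ± 0.24 for Rian and 1.71 ± 0.17 for Mirg. All 3 passed the limma interaction test over 11287 genes, with adjusted p-values of 0.0090, 0.0065 and 0.00076. Positive interactions were rare, with 11 genes called (0.0975%) against 62 negative calls (0.549%). A single gene had a more positive estimate than Meg3, 2 more than Rian and 3 more than Mirg. Both CLIPΔ comparisons enter this value, and the 4 comparisons above share their WT, CLIPΔ and Ago2 KO libraries. With replicates 1 and 2 only, the estimates were 1.49, 1.40 and 1.54 with limma adjusted p-values of 0.12, 0.10 and 0.090, and 0 genes were called.

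The ratio of 2 RNAs within a library does not depend on the library total. Rian was at 0.251 and 0.256 of the Meg3 TPM in WT mESCs, at 0.247 and 0.312 in CLIPΔ mESCs, at 0.326, 0.407, 0.395 and 0.366 in Ago2 KO mESCs, and at 0.411, 0.364, 0.342 and 0.395 in Ago2 KO/CLIPΔ mESCs. Every library without Ago2 had a higher Rian to Meg3 ratio than every library with Ago2. Mirg was at 0.180 and 0.191 of Meg3 in WT mESCs, at 0.161 and 0.213 in CLIPΔ mESCs, at 0.265, 0.266, 0.243 and 0.254 in Ago2 KO mESCs, and at 0.310, 0.275, 0.194 and 0.203 in Ago2 KO/CLIPΔ mESCs. Here the 2 deepest Ago2 KO/CLIPΔ libraries fell back into the range of the libraries with Ago2. Between Ago2 KO/CLIPΔ and Ago2 KO mESCs the log2 ratio to Meg3 differed by 0.02 ± 0.09 (SE) for Rian (exact two-sided permutation p = 0.83 over 8 libraries) and by -0.09 ± 0.17 for Mirg (exact p = 0.60, and 0.50 with sign flips within pairs).

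**Figure D4:**
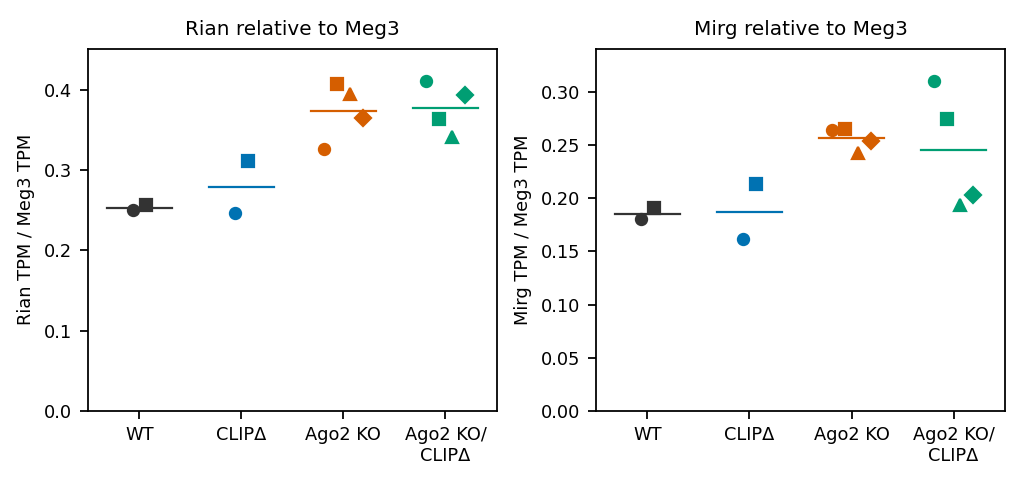
Rian and Mirg as a share of Meg3 within each RNA-seq library (TPM over TPM, y axis from 0), by genotype on the x axis. Symbols mark replicate numbers and lines the means, and all 8 libraries without Ago2 lie above the 4 with Ago2 for Rian.

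The RNAs that ran most in step with Meg3 over the 12 libraries were Rian (Pearson r = 0.97 of log2(TPM + 1)) and Mirg (r = 0.97), ahead of all other genes among 11287. C2cd2 (0.95), Zyg11a (0.95) and Ap4m1 (0.94) followed. With the mean of the 3 members, the closest genes were C2cd2 (0.94), Gid4 (0.94), Pecr (0.93), Fbxl20 (0.92) and Ccng2 (0.92). These values are descriptions, since the 12 libraries fall into 4 genotypes and the points share them. C2cd2 was at 1.93 to 2.32 TPM in WT, 1.63 to 1.79 in CLIPΔ, 0.989 to 1.16 in Ago2 KO and 1.25 to 1.65 in Ago2 KO/CLIPΔ mESCs, a smaller span of levels than that of Meg3.

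Among the neighbours of the 3 RNAs, Rtl1, the retrotransposon-derived gene transcribed from the opposite strand, moved in the same direction in some of the comparisons. It was at 6.12 and 5.83 TPM in WT, 1.57 and 3.60 in CLIPΔ, 1.87 to 2.81 in Ago2 KO and 3.82 to 4.68 in Ago2 KO/CLIPΔ mESCs, on only 16 to 131 reads per library. The length behind its values, 5234 bases, equals the RefSeq coding span (chr12:109590169-109595403), which lies between Meg3 and Rian and overlaps neither. RefSeq also places the plus-strand miRNA genes Mir431, Mir433, Mir127, Mir434, Mir432 and Mir136 inside that span. Rtl1 fell by 1.12 in Ago2 KO against WT (limma adjusted p = 0.00066). It rose by 0.68 in Ago2 KO/CLIPΔ against Ago2 KO (limma adjusted p = 0.0095, and 0.078 with the spread from all 12 libraries). Its interaction was 1.70 (limma adjusted p = 0.012, and 0.28 with replicates 1 and 2 only), and 1.67 without WT replicate 1. Whether the counting used strand is not given in the sources used here, so plus-strand reads in this span cannot be told apart from reads of Rtl1.

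Dlk1 and Dio3 at the ends of the domain did not follow the 3 RNAs in all comparisons. Dlk1, a Notch-related membrane protein, was at or under 2.35 TPM in every library and rose by 0.57 in Ago2 KO against WT (limma adjusted p = 0.033), a call that did not hold without WT replicate 1 (0.36, limma adjusted p = 0.18), without Ago2 KO replicate 1 (0.52, limma adjusted p = 0.074) or without Ago2 KO replicate 2 (0.50, limma adjusted p = 0.069). Dlk1 also rose by 0.87 in Ago2 KO/CLIPΔ against CLIPΔ mESCs (limma adjusted p = 0.0066), and all 13 alternatives run kept that call. Dio3, the deiodinase that inactivates thyroid hormone, was at 16.3 and 55.8 TPM in WT and 58.3 and 61.0 TPM in CLIPΔ mESCs. It was at 13.6 to 19.2 TPM in Ago2 KO and 13.4 to 24.2 TPM in Ago2 KO/CLIPΔ mESCs. In Ago2 KO against WT its difference was -0.83, with the sign of the members, and did not pass (limma adjusted p = 0.13). Dio3 fell by 1.71 in Ago2 KO/CLIPΔ against CLIPΔ mESCs (limma adjusted p = 0.0027), the comparison in which no member passed. Of the 12 other genes of the region tested, 1 rose and 7 fell in Ago2 KO against WT mESCs (median -0.57, all genes -0.26). Of all genes, 14.1% rose and 43.5% fell in that comparison. In Ago2 KO/CLIPΔ against Ago2 KO mESCs 1 of the 12 rose and 0 fell (median -0.03, all genes -0.05), where 0.986% of all genes rose and 2.24% fell.

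In Ago2 KO/CLIPΔ against Ago2 KO mESCs the counts of related lists are given beside a background of 0.986% of all genes higher and 2.24% lower, at which lists of this size would hold few calls. Of 22 other imprinted genes tested, 0 rose and 2 fell (median -0.08). Of 17 genes of imprint maintenance and DNA methylation, 0 rose and 0 fell (median -0.06), of 13 Polycomb repressive complex 2 genes 0 rose and 1 fell (median -0.08), of 21 other long noncoding RNAs 1 rose and 1 fell (median -0.01), and of 12 genes of nuclear RNA processing 0 rose and 1 fell (median -0.04). The median of all genes was -0.05.

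In Ago2 KO against WT mESCs the same lists moved mostly downward, as did the genes at large (43.5% of all genes lower, 14.1% higher, median -0.26). Of the other long noncoding RNAs, 18 of 21 fell and 0 rose (median -1.40), and among them Malat1 fell by 2.97, the miR-17-92 host Mir17hg fell by 2.65 and Firre fell by 2.05. The first 2 lay below the -2.33 of Meg3. Of the other imprinted genes 13 of 24 fell and 1 rose (median -0.43), of imprint maintenance and DNA methylation genes 11 of 17 fell and 2 rose (median -0.50), of Polycomb genes 9 of 13 fell and 2 rose (median -0.63), and of nuclear RNA processing genes 9 of 12 fell and 0 rose (median -0.65). In Ago2 KO/CLIPΔ against CLIPΔ mESCs, where no member passed and 37.2% of all genes were lower and 10.7% higher, 17 of 21 other long noncoding RNAs fell and 0 rose (median -1.29). Of 13 Polycomb genes 10 fell and 2 rose, of 12 nuclear RNA processing genes 9 fell and 0 rose, of 23 other imprinted genes 9 fell and 1 rose, and of 17 imprint maintenance genes 8 fell and 1 rose. The imprinted and imprint maintenance shares lay near that background. In CLIPΔ against WT mESCs 0 genes of any list passed.

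The list of 498 Trim71 CLIP-seq peaks, made by the authors from both replicates over the input, held 0 peaks within Meg3, Rian or Mirg on either strand. With 498 peaks beside 15034 genes in the RNA-seq table, most genes hold none, so the absence sets these RNAs little apart. The share of all genes with a peak was not counted.

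The mature miRNAs that lie inside Rian and Mirg were measured in the small RNA-seq libraries. They were assigned to a host by position, and whether their levels follow the host RNA was not tested. By RefSeq position on the plus strand, 6 mature miRNAs lie inside Rian and 19 inside Mirg, and 4 and 17 of them were in the small RNA-seq table of 507 miRNAs. The 6 with the highest mean level in WT mESCs and those that passed the test in CLIPΔ against WT mESCs are shown from RefSeq (GRCm38.p6), together with miR-409-5p, the other arm of the Mir409 hairpin, chosen after its values were seen. Capitals mark the seed, bases 2 to 8, which pairs with target RNAs. No 2 of the 21 shared a seed.
mmu-miR-541-5p: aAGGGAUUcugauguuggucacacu
mmu-miR-409-3p: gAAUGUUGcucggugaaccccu
mmu-miR-409-5p: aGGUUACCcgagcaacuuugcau
mmu-miR-369-3p: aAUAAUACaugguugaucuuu
mmu-miR-341-3p: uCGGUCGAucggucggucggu
mmu-miR-154-3p: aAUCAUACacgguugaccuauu
mmu-miR-410-3p: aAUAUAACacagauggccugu
mmu-miR-154-5p: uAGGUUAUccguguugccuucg

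miRNA levels are in TPM over the listed miRNAs. Recovered miRNA reads came to 5.49 to 8.42 M in WT, 3.17 to 7.95 M in CLIPΔ, 0.852 to 1.11 M in Ago2 KO and 0.898 to 1.36 M in Ago2 KO/CLIPΔ libraries, so the libraries without Ago2 were the shallower ones. Together the 21 miRNAs summed to 41427 ± 3922 TPM (SD, n = 4) in WT, 30321 ± 4686 in CLIPΔ, 30398 ± 2838 in Ago2 KO and 52776 ± 1462 in Ago2 KO/CLIPΔ mESCs. The last group lay above all 12 other libraries. miR-541-5p and miR-409-3p, both from Mirg, supplied most of it.

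In CLIPΔ against WT mESCs, 10 of the 21 passed the filter of a mean of 100 and all 10 estimates were below 0, from -0.78 to -0.18 (median -0.42, all miRNAs 0.04). miR-341-3p fell by 0.78, miR-154-5p fell by 0.69 and miR-541-5p fell by 0.60 with limma adjusted p-values of 0.020, 0.012 and 0.049, and the other 7 did not pass. So 3 of 10 fell and 0 rose, against 8.37% and 19.4% of the 227 miRNAs tested. miR-341-3p was at 1388, 1590, 1482 and 1440 TPM in WT against 1103, 903, 933 and 586 TPM in CLIPΔ libraries.

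Between Ago2 KO and WT mESCs, miRNAs of the same host differed in opposite directions. The WT columns carry letters and the Ago2 KO columns numbers, and their depths differed. Genotype therefore cannot be told apart from clone or set of libraries here. In Ago2 KO against WT mESCs 12 of the 21 were tested, 7 fell and 5 rose, where 32.9% and 50.0% of the 240 miRNAs tested did. On the log2 scale miR-154-5p fell by 3.24, miR-369-3p fell by 2.89 and miR-341-3p fell by 2.25, each of them past the value of its host RNA (-1.76 for Mirg, -1.72 for Rian). miR-409-5p rose by 3.69, miR-370-3p by 3.22, miR-377-5p by 2.31, miR-496a-3p by 1.12 and miR-369-5p by 0.46, although Rian and Mirg fell (these 5 were named after their values were seen). The arms of the Mir409 hairpin moved apart, where miR-409-3p fell by 0.75 (limma adjusted p = 0.00085) and miR-409-5p rose by 3.69 (limma adjusted p = 5.8e-09). Mean levels of miR-409-3p were 10493 TPM in WT and 6190 TPM in Ago2 KO mESCs, and those of miR-409-5p were 33.99 and 448 TPM.

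Between Ago2 KO/CLIPΔ and Ago2 KO mESCs, by contrast, all 12 miRNAs tested rose, by 0.74 to 1.08 on the log2 scale (median 0.93). The background was 21.6% higher and 30.6% lower among 232 miRNAs, with a median of -0.17. The 12 rested on 61 to 46543 reads per library. Rian rose by 1.00 and Mirg by 0.87 in the RNA-seq libraries of the same genotypes, beside miR-341-3p of Rian at 1.08 and miR-541-5p of Mirg at 0.76. miR-541-5p was at 16605, 20623, 17535 and 17789 TPM in Ago2 KO and at 30491, 31387, 29489 and 31073 TPM in Ago2 KO/CLIPΔ libraries. Both arms of Mir409 rose here, miR-409-3p by 0.75 and miR-409-5p by 0.86. All miRNAs share the 8 libraries and several share a primary transcript, so they are not independent of each other.

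In Ago2 KO/CLIPΔ against CLIPΔ mESCs 13 were tested, of which 6 rose and 3 fell, from -1.62 for miR-154-5p to 4.42 for miR-370-3p (median 0.19, all miRNAs 0.27), while 46.2% of 249 miRNAs were higher and 36.1% lower. Their hosts Rian (0.01) and Mirg (-0.06) did not pass in that comparison.

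**Figure D5:**
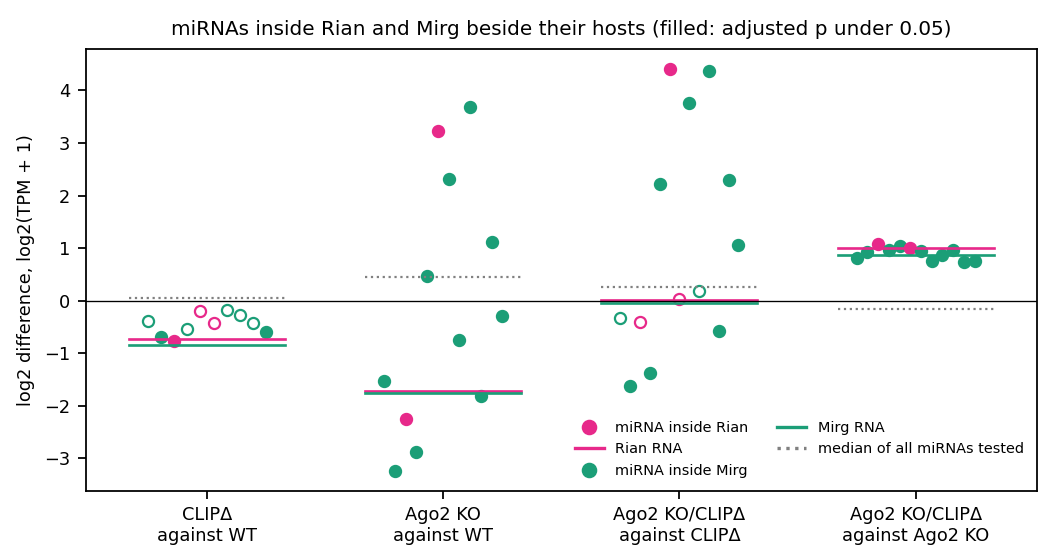
Differences between genotypes for the miRNAs inside Rian (pink) and Mirg (green) that passed the filter, on the log2(TPM + 1) scale (y axis), for 4 comparisons (x axis). Points are miRNAs, filled where the limma adjusted p is under 0.05, solid lines are the RNA-seq differences of the hosts and dotted lines the median of all miRNAs tested. The 12 miRNAs lie close to their hosts for Ago2 KO/CLIPΔ against Ago2 KO, and spread from -3.24 to 3.69 for Ago2 KO against WT.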

How the data were processed

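RNA-seq of 12 libraries and small RNA-seq of 16 libraries of mESCs, and a Trim71 CLIP-seq peak list, were used. Per the labels and the study's methods, the authors aligned reads with HISAT2 2.1.0 to mm10, counted them with HTSeq on the longest transcript of each gene and deposited TPM values per library, without pooling replicates. The annotation release and strand setting are not given in the sources used here. The deposited TPM lists only genes above 0 in every library. The CLIP-seq list gives the read count of each peak, deposited as 1 common list of both replicates, and only peak positions were used.

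Differences were fitted with limma 3.58.1 (trend) in R 4.3.3 on log2(TPM + 1). Genes whose mean over the compared libraries reached 1 TPM were kept, with Benjamini-Hochberg adjustment over all of them and a threshold of 0.05. The interaction used all 12 libraries. miRNAs, rescaled to the library sum, needed a mean deposited value of at least 100. The pseudocount of 1 understates the change of low genes. Whole reads were recovered from ratios of values between libraries (tolerance 0.02, all genes and miRNAs), which gave depth and an added edgeR 4.0.16 fit. The scripts were tested on simulated data. Same-numbered Ago2 KO and Ago2 KO/CLIPΔ libraries deviated together (correlation of deviations over 11287 genes 0.32 to 0.43 in the 4 RNA-seq pairs, 0.17 to 0.39 over 249 miRNAs), so their numbers were taken as pairs. Differently numbered libraries within replicates 1 and 2 or within 3 and 4 correlated as much (0.33 to 0.47 in RNA-seq, 0.06 to 0.41 in small RNA-seq) and those across these sets did not (-0.44 to -0.28 and -0.47 to -0.04), so the numbers and the sets cannot be told apart.

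Members were taken by name. Named list genes were at most 4 per list with the largest change among those passing in any comparison, and miRNAs the 6 highest in WT plus up to 3 that passed in CLIPΔ against WT. The members, lists and tests were chosen with earlier results of these data known. The small RNA-seq columns of WT and CLIPΔ carry letters that the labels do not tie to single samples, so they were used by group. Alternatives were another pseudocount, no filter, a fit over all libraries, median-of-ratios scaling, the replicate block, replicate subsets and leaving out each library. The edgeR fit, the fit without Ago2 KO/CLIPΔ replicates 3 and 4 and the sign-flip test within pairs were chosen after seeing the data.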

Additional observations from a re-analysis of the deposited data

Results flagged for a closer look

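The effect of CLIPΔ differed between cells without and with Ago2 for each member, by the limma interaction test: by 1.90 log2 units for Meg3, 1.73 for Rian and 1.71 for Mirg. The neighbouring gene Rtl1 was flagged in the same way, at 1.70. With replicates 1 and 2 only, none of these interactions passed the test. In each case the CLIPΔ libraries were lower than WT libraries while the Ago2 KO/CLIPΔ libraries were higher than Ago2 KO libraries. Of 42 groups of 4 libraries examined for a library far from the rest (members, Ago2, Rtl1, ratios and named miRNAs), 0 held one.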

How the results depend on the processing

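The direction of all 3 members was kept under every alternative in CLIPΔ against WT, Ago2 KO against WT, Ago2 KO/CLIPΔ against Ago2 KO and the interaction, and the calls in Ago2 KO against WT held under each. In CLIPΔ against WT, the replicate block called Meg3 (-0.88, limma adjusted p = 0.024), Rian (-0.73, 0.040) and Mirg (-0.84, 0.033) and 333 genes in place of 0. These libraries share only a number (correlation of deviations 0.71 in 2 pairs). The fit over all 12 libraries called Mirg (-0.84) and 256 genes, and leaving out a library gave 0 to 186 genes, 186 without CLIPΔ replicate 2 and 42 without CLIPΔ replicate 1. In Ago2 KO/CLIPΔ against CLIPΔ, the replicate block and replicates 1 and 2 alone both gave -0.75 for Meg3, now called, and -0.27 for Rian, reversed. Leaving out a library gave -0.10 to 0.13 for Rian and -0.12 to 0.011 for Mirg, and Mirg was at 0.22 with median-of-ratios scaling and at 0.23 with edgeR. In Ago2 KO/CLIPΔ against Ago2 KO, Meg3 ranged from 0.90 to 1.19 over libraries left out, and was called in each but 1. The genes called numbered 99 in the fit over all 12 libraries, 804 with the replicate block, 4157 with replicates 1 and 2, 4238 with replicates 3 and 4, 1621 without Ago2 KO/CLIPΔ replicates 3 and 4, and 130 to 259 with 1 library left out, lowest without Ago2 KO replicate 1. With replicates 1 and 2 only, the interaction was 1.49, 1.40 and 1.54, not called, with 0 genes called. It had 168 genes without the filter and 48 to 137 with 1 library left out. In Ago2 KO against WT, 4142 genes were called with the replicate block and 3563 with replicates 1 and 2. In Ago2 KO/CLIPΔ against CLIPΔ, leaving out a library gave 2675 to 5592, lowest without CLIPΔ replicate 1. The miRNAs inside Rian and Mirg that passed numbered 6 in the fit over all 16 libraries, 5 with median-of-ratios scaling and 1 to 3 with a library left out in CLIPΔ against WT, 1 without WT library B or C. Without the filter they numbered 19 in Ago2 KO against WT and 14 in Ago2 KO/CLIPΔ against CLIPΔ. The log2 ratio of TPM + 1 moved Rian over Meg3 to -0.026. Leaving out a WT or CLIPΔ RNA-seq library leaves 1 of that genotype, which is then assumed to vary like the others. The replicate block changed no other call of a member. The cause of these shifts was not tested. The 2 libraries each of WT and CLIPΔ, and the low read counts of Rtl1, limit the precision, and intervals from read counts cover counting error only.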

Other observations

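H19, the maternally expressed imprinted noncoding RNA of another chromosome, went the other way from the 3 RNAs in cells without Ago2. It was at 59.2 and 91.0 TPM in WT and 48.3 and 62.3 TPM in CLIPΔ mESCs, at 32.98 to 43.3 TPM in Ago2 KO and at 7.50 to 7.72 TPM in Ago2 KO/CLIPΔ mESCs. It fell by 2.16 ± 0.09 (SE) on the log2 scale in Ago2 KO/CLIPΔ against Ago2 KO mESCs (limma adjusted p = 6.7e-06). The Ago2 KO/CLIPΔ libraries all lay below the Ago2 KO libraries for H19, as in 1054 of the 10956 genes tested. Its interaction was -1.75 (limma adjusted p = 0.0053, and 0.25 with replicates 1 and 2 only).

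Dppa3, of the imprint maintenance and DNA methylation list, was at 18.8 and 28.3 TPM in WT, 117 and 269 TPM in CLIPΔ, 1.28 to 3.39 TPM in Ago2 KO and 1.81 to 2.38 TPM in Ago2 KO/CLIPΔ mESCs. Its difference of 2.89 in CLIPΔ against WT did not pass (limma adjusted p = 0.44). The pseudocount understates changes at the low Dppa3 levels of the genotypes without Ago2. Its interaction was -2.94 (limma adjusted p = 0.010, and 0.17 with replicates 1 and 2 only). Both genes were named by the list rule.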
